A study of Capra hircus with 36 samples.

Results

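The miR-30 family was followed through 36 small RNA libraries of the domestic goat. Members were chosen by name, as every row from chi-miR-30a to chi-miR-30f in the deposited counts, whichever arm of the hairpin it came from, where chi stands for the goat, Capra hircus, and is left out from here on (chi-miR-30a-5p, chi-miR-30b-5p, chi-miR-30c-5p, chi-miR-30d-5p, chi-miR-30e-5p and chi-miR-30f-5p, with their 3p partners, among them chi-miR-30d-3p). This rule found 12 of 1391 mature miRNAs, the 5p and the 3p row of each letter, and 2 further miR-30 rows that the authors named as matching no annotated miRNA were left aside. Levels are given as RPM, the counts of a row scaled to a library total of 1e+06 miRNA counts.

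Each of 6 goats gave spleen, lung, liver, kidney, heart and the longissimus, a skeletal muscle called muscle here. The high-altitude group was 3 adult female Tibetan Goats living at 3000 m, and the low-altitude group was 3 adult female Chuandong White Goats living at 600 m, all labelled as about 3 years old or older. Every combination of tissue and altitude therefore had 3 libraries from 3 animals. The groups differ in population and in husbandry (stocking or nomadism at high and home rearing at low altitude) as well as in altitude, so the contributions of these cannot be told apart, and the goats, not the tissues taken from them, are the replicates of an altitude.

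A miRNA is cut from a hairpin precursor as a duplex, whose strands are named 5p and 3p for the side of the hairpin they come from. The strand that stays in the Argonaute protein pairs through its seed, bases 2 to 8, with sites in messenger RNAs and lowers their translation or stability. The 5p strands of miR-30 are related in sequence and share a seed, so they can recognise the same sites, and they are usually the retained strands. The family is known for high levels in kidney and heart, for the maintenance of epithelial cells and podocytes, and for the restraint of fibrosis and of autophagy genes. In the goat annotation of RefSeq (ARS1.2) the genes stood as neighbours in pairs, since the nearest miRNA gene was MIR30F for MIR30A, MIR30D for MIR30B and MIR30E for MIR30C.

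The sequence of 1 member could be read from the study's list of assayed miRNAs, and it is shown because its row was one of those counted at 2 separate levels. It is an assay sequence of 18 bases, against 20 to 24 in the other 11 entries of that list, and may lack bases of the mature strand, so no seed is marked in it. It is written 5′ to 3′.
miR-30d-3p: cagtcagatgtttgctgc

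Library totals ran from 7108635 to 14407748 counts, at which 3 counts, the limit that a count of 0 allows, equal 0.208 to 0.422 RPM. That limit covers counting error only. The summed marker miRNAs of heart, liver and lung were higher in every library of the labelled tissue than in any other library. The kidney, skeletal muscle and spleen lists overlapped with another tissue at their edges. The lowest kidney library held 169596 RPM of miR-192, miR-194 and miR-10b against up to 203910 RPM in muscle, the lowest muscle library 182844 RPM of miR-1, miR-133a and miR-206 against up to 208103 RPM in heart, and the lowest spleen library 17129 RPM of miR-142, miR-150 and miR-155 against up to 22539 RPM in liver.

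The family was most abundant in kidney. Its 5p members together took 14.8% ± 1.62 (SD, n = 6) of all miRNA counts in kidney, 10.1% ± 1.38 in liver, 9.75% ± 1.61 in heart and 7.60% ± 1.90 in lung. They took 2.98% ± 0.501 in spleen and 2.89% ± 0.346 in muscle. The lowest kidney library, at 11.7%, lay under the highest heart library, at 11.8%, and the highest liver library, while every kidney, liver, heart and lung library lay above every spleen and muscle library, of which the highest had 3.60%. In whole tissue, fewer cells of a type and less RNA per cell cannot be told apart. The order depended on the scaling. With the trimmed mean of M-values (TMM), which scales libraries by the bulk of their miRNAs, the value was 5.10% in muscle and 2.27% in spleen, with lung at 5.72%, and heart, at 12.8%, was above liver, at 8.01%.

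For scale, the 5p rows of let-7 and miR-98 together, 7 in number, took from 1.49% in heart to 4.33% in spleen, and the 3 rows of miR-26 from 9.41% in muscle to 18.1% in lung. In kidney the miR-30 members had 14.8% beside 9.83% ± 3.36 for miR-26 (SD, n = 6), whereas in spleen they had 2.98% beside 10.2% ± 3.16. These families also held rows at 0, in 3 to 6 of 18 values per tissue for miR-26 and 0 to 6 of 42 for let-7 and miR-98, beside 0 to 5 of 36 for miR-30. The shares are a description and carry no test.

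**Figure D1:**
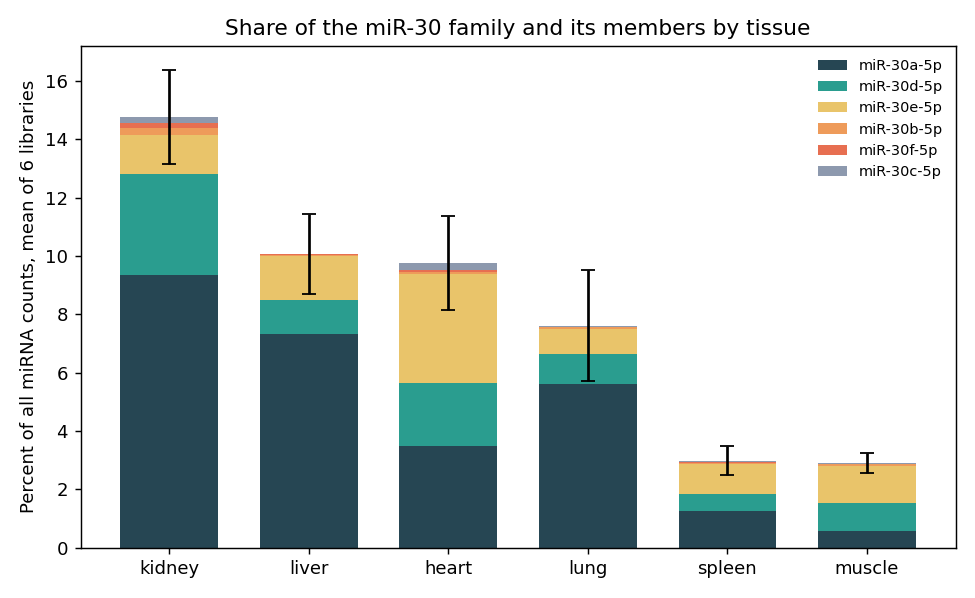
Stacked bars give the mean share of all miRNA counts, in percent, that each 5p member of the miR-30 family took in 6 libraries per tissue, and error bars give the SD of the family sum. Kidney is highest at 14.8% and muscle lowest at 2.89%, and miR-30a-5p is the main part of the bar in kidney, liver and lung but not in muscle.

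The composition of the family changed between tissues. The members miR-30a-5p, miR-30d-5p and miR-30e-5p together made up 91.4% to 99.6% of the 5p counts in the 36 libraries, with a median of 97.9%. The share of miR-30a-5p in the family was 72.5% ± 6.27 in liver, 72.4% ± 8.16 in lung and 63.8% ± 7.41 in kidney (SD, n = 6 each). It was 42.1% ± 4.53 in spleen, 35.4% ± 11.4 in heart and 20.1% ± 5.85 in muscle. The share of miR-30e-5p was 44.5% ± 9.60 in muscle and 38.2% ± 9.27 in heart, against 9.07% ± 2.03 in kidney. It exceeded miR-30a-5p in all 6 muscle libraries, and in heart in all 3 low-altitude but 1 of 3 high-altitude libraries. These shares are ratios within a library and do not depend on how libraries are scaled.

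All 12 rows were compared between tissues with edgeR's quasi-likelihood test over the 36 libraries, with altitude as a second term and Benjamini-Hochberg adjustment over all 1391 miRNAs. A row was called at an adjusted p under 0.05. The test called 10 of 12 members, beside 44.5% of all miRNAs, and with the goat as a block it called 9 of 12, beside 34.2%. The member lost with the block was miR-30a-3p. The rows not called were the arms of miR-30c, at adjusted p = 0.242 for 5p and 0.615 for 3p in edgeR, and both were recorded as 0 in many libraries. In a limma fit with counts of 0 beside at least 1000 in the same group set as missing, miR-30c-5p was called (limma adjusted p = 0.000204). Its 0 counts in high-altitude liver and low-altitude muscle, where the whole group was at 0, were kept in that fit. The call therefore also rests on which 0 counts were kept.

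The most abundant member was miR-30a-5p. Its kidney libraries ran from 84372 RPM over a median of 92513 to 105120, and its muscle libraries from 4131 over 4952 to 7962. The means of the tissues fell in the order kidney 93544 ± 8732 (SD, n = 6), liver 73319 ± 14493, lung 56142 ± 18882, heart 34680 ± 12716, spleen 12513 ± 2368 and muscle 5772 ± 1667 RPM. Every kidney, liver, lung and heart library was above every spleen and muscle library. The fitted difference of kidney over muscle was 3.35 ± 0.350 (log2, SE; edgeR adjusted p = 4.39e-09). Among neighbours in the order only heart over spleen was called, by 2.21 ± 0.334 (edgeR adjusted p = 6.13e-06), and with the goat as a block kidney over liver was called as well (edgeR adjusted p = 0.0258 against 0.0887 without it). On the TMM scale of that fit muscle did not lie below spleen (log2 difference of spleen over muscle -0.12 ± 0.320), nor heart below lung (-0.04 ± 0.320 for lung over heart).

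The epithelial list, 5 miRNAs of the miR-200 family, had a median of 7900 RPM in lung, 2469 in kidney and 1017 in liver, and 46.5 in spleen, 18.3 in muscle and 12.8 in heart. Heart thus held 34680 RPM of miR-30a-5p at the lowest epithelial median. The part of epithelial content in the levels of miR-30a-5p was not tested.

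The member miR-30d-5p was highest in kidney and heart. Kidney had 34520 ± 10224 RPM and heart 21661 ± 3709 (SD, n = 6), and this pair was not separated (log2 difference 0.30 ± 0.223, edgeR adjusted p = 0.421). Liver followed with 11665 ± 2284, lung with 10385 ± 2135, muscle with 9459 ± 1570 and spleen with 5850 ± 1559. Heart exceeded liver by 1.66 ± 0.229 (log2, SE; edgeR adjusted p = 1.09e-06) and muscle exceeded spleen by 1.94 ± 0.231 (edgeR adjusted p = 5.79e-08). Lung and muscle changed places with the scaling. In RPM lung was slightly above muscle, whereas on the TMM scale muscle was above lung, at -1.12 ± 0.226 for lung over muscle (edgeR adjusted p = 0.000268).

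The member miR-30e-5p, whose gene neighbours that of miR-30c, was highest in heart. Its 6 heart libraries ran from 24312 over a median of 35293 to 51489 RPM. The lowest of them exceeded the highest library of any other tissue, 20316 RPM in liver. The means were 37509 ± 12023 RPM in heart, 14998 ± 4008 in liver, 13446 ± 3668 in kidney, 12916 ± 3618 in muscle, 10189 ± 2190 in spleen and 8522 ± 1589 in lung (SD, n = 6). Heart over liver was 2.09 ± 0.279 (log2, SE; edgeR adjusted p = 6.01e-07). Liver over kidney (-0.25 ± 0.267) and kidney over muscle (-0.67 ± 0.268) were not called and had the opposite sign on the TMM scale, while muscle over spleen was called (1.51 ± 0.273, edgeR adjusted p = 6.87e-05) and spleen over lung was not (0.29 ± 0.267, edgeR adjusted p = 0.522).

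The less abundant members miR-30b-5p and miR-30f-5p were both highest in kidney. For miR-30b-5p kidney held 2434 ± 1137 RPM (SD, n = 6), and the other tissues lay between 421.6 in liver and 590.9 in heart. Its lowest kidney library, 1293 RPM, was above the highest library elsewhere, 707.8 RPM in lung. Kidney over heart was 1.60 ± 0.255 (log2, SE; edgeR adjusted p = 1.21e-05). Muscle over spleen was also called (1.26 ± 0.253, edgeR adjusted p = 0.000320), although the RPM of these tissues averaged 503.3 and 494.1.

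Kidney held 1727 ± 1667 RPM of miR-30f-5p and heart 823.4 ± 520.5 (SD, n = 6), a pair that was not separated (0.66 ± 0.375, log2, edgeR adjusted p = 0.290). Heart over spleen was 2.96 ± 0.402 (edgeR adjusted p = 9.81e-07). Spleen, lung, liver and muscle held 190.7, 186.7, 126.2 and 78.9 RPM and no neighbours among them were separated. Over the 5 members of the 5p arm counted in every library, 9 of 25 neighbouring pairs of tissues were called in edgeR, and 10 with the goat as a block. Over all miRNAs 14.2% were called, a share that covers all pairs of tissues and not neighbours only. The sign was against the order in RPM in 9 of the 25 fitted differences, the called lung over muscle of miR-30d-5p among them.

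**Figure D2:**
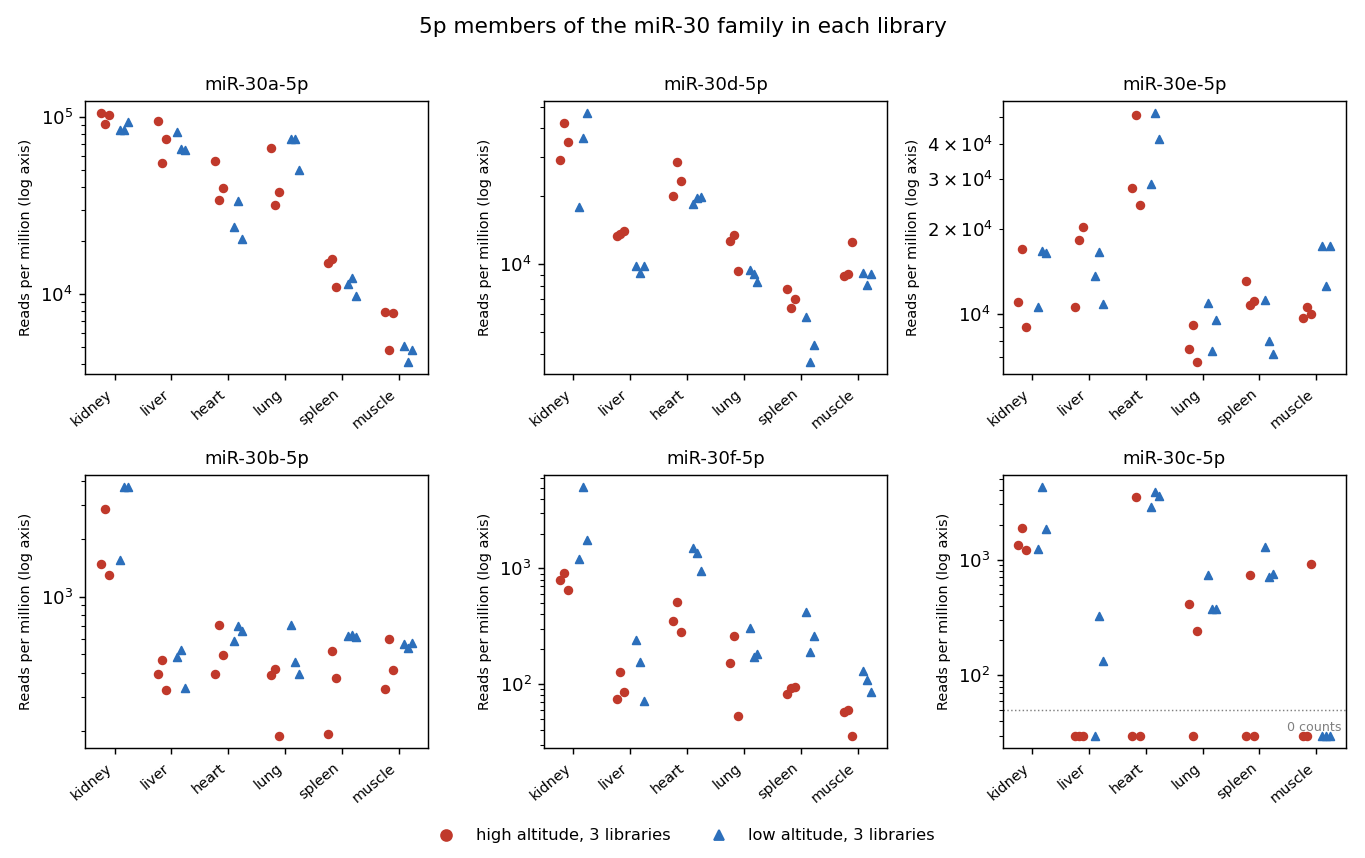
Points give the RPM of each 5p member in each of the 36 libraries on a log axis, by tissue, with red circles for the 3 high-altitude and blue triangles for the 3 low-altitude libraries of a tissue, and points under the dotted line in the miR-30c-5p panel mark libraries with 0 counts. The heart libraries of miR-30e-5p, from 24312 to 51489 RPM, stand above all other tissues, and miR-30c-5p is at 0 in 14 libraries.

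The most unusual counts of the family were those of miR-30c. Both of its arms had 0 counts in the same 14 libraries and were counted together in the other 22, where miR-30c-5p had 1112 to 47418 and miR-30c-3p 16 to 485 counts. No library held a value in between. Of the 22 libraries, 8 were of high and 14 of low altitude.

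In heart, the 3 high-altitude libraries held 0, 42606 and 0 counts of miR-30c-5p and the low-altitude libraries 34722, 41653 and 43994. In spleen the high-altitude libraries held 0, 6980 and 0 and the low-altitude libraries 13571, 6119 and 6794. In muscle 1 high-altitude library held 11700, and the other 2 and all 3 low-altitude libraries held 0. Each 0 of heart and spleen thus fell at high altitude, beside a library of the same group at the level of the low-altitude libraries.

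In lung the high-altitude counts were 3972, 0 and 2484 and the low-altitude counts 7057, 4058 and 3826. In liver all 3 high-altitude libraries had 0, and the low-altitude libraries had 0, 2333 and 1112. Kidney was the only tissue with no 0, with 14200, 17939 and 13549 counts at high and 12267, 47418 and 18497 at low altitude. Where miR-30c-5p was counted, its mean level was 3427 RPM in 4 heart libraries, 1947 RPM in 6 kidney libraries, 915.7 RPM in 1 muscle library, 872.8 RPM in 4 spleen libraries, 426.6 RPM in 5 lung libraries and 230.3 RPM in 2 liver libraries.

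A count of 0 beside at least 1000 in the same tissue and altitude occurred 10 times in the family, in 2 members. Of these, 8 were in miR-30c-5p, in heart of high-altitude replicates 1 and 3, lung of replicate 2, muscle of replicates 1 and 2, spleen of replicates 1 and 3, and liver of low-altitude replicate 1. The other 2 were in miR-30a-3p, in muscle of high-altitude replicate 1 and spleen of high-altitude replicate 2. Over all miRNAs the same pattern occurred in 53 of the 278 that reached 1000 counts in some library (19.1%), and in the family in 2 of the 9 that did (22.2%), so the family's share was near that of all miRNAs.

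The other 5p members did not drop out with miR-30c-5p. In the 5 groups of tissue and altitude with both kinds of library, each with 3 libraries, their mean RPM where miR-30c-5p was 0 was divided by that where it was counted. The ratio ran from 0.614 to 1.40 for miR-30a-5p (median 0.821), from 0.548 to 1.44 for miR-30b-5p (1.12) and from 0.712 to 1.23 for miR-30d-5p (1.03). It ran from 0.517 to 1.28 for miR-30e-5p (1.02) and from 0.616 to 2.54 for miR-30f-5p (1.63), so no member was at 0 with miR-30c-5p, while single ratios lay on both sides of 1 for each. The level of miR-30e-5p, the neighbour of miR-30c in the genome, was never below 6740 RPM. The 5p members share a seed, and the authors mapped reads with no mismatch. How their counting divides any reads that match several rows cannot be seen in the counts. To that extent the level of each 5p member is uncertain. The part of such reads in the 0 counts was not tested.

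The rows of miR-30a-3p and miR-30d-3p also fell into 2 levels. The first had 0 to 18 counts in 27 libraries and 1031 to 7619 in the other 9, and the second 0 to 4 in 20 libraries and 319 to 2158 in the other 16. All 9 libraries at the higher level of miR-30a-3p were also at the higher level of miR-30d-3p. By contrast, only 3 of these 9 were among the 22 in which miR-30c was counted. In 7 libraries miR-30d-3p was at its higher level and miR-30a-3p was not, and miR-30c was counted in 4 of these 7.

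In muscle, miR-30d-3p (the sequence given above) had 536, 445 and 556 counts at high and 390, 541 and 495 at low altitude, so all 6 libraries were at the higher level. In lung it had 0, 2 and 1 and then 1, 0 and 0, so none was. In kidney 1 high-altitude library had 2158 counts and the other 5 had 0 to 4. The gene partner strand, miR-30d-5p, showed no such gap, with kidney libraries of 28976, 42431 and 34874 RPM at high and 17870, 36239 and 46729 RPM at low altitude.

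**Figure D3:**
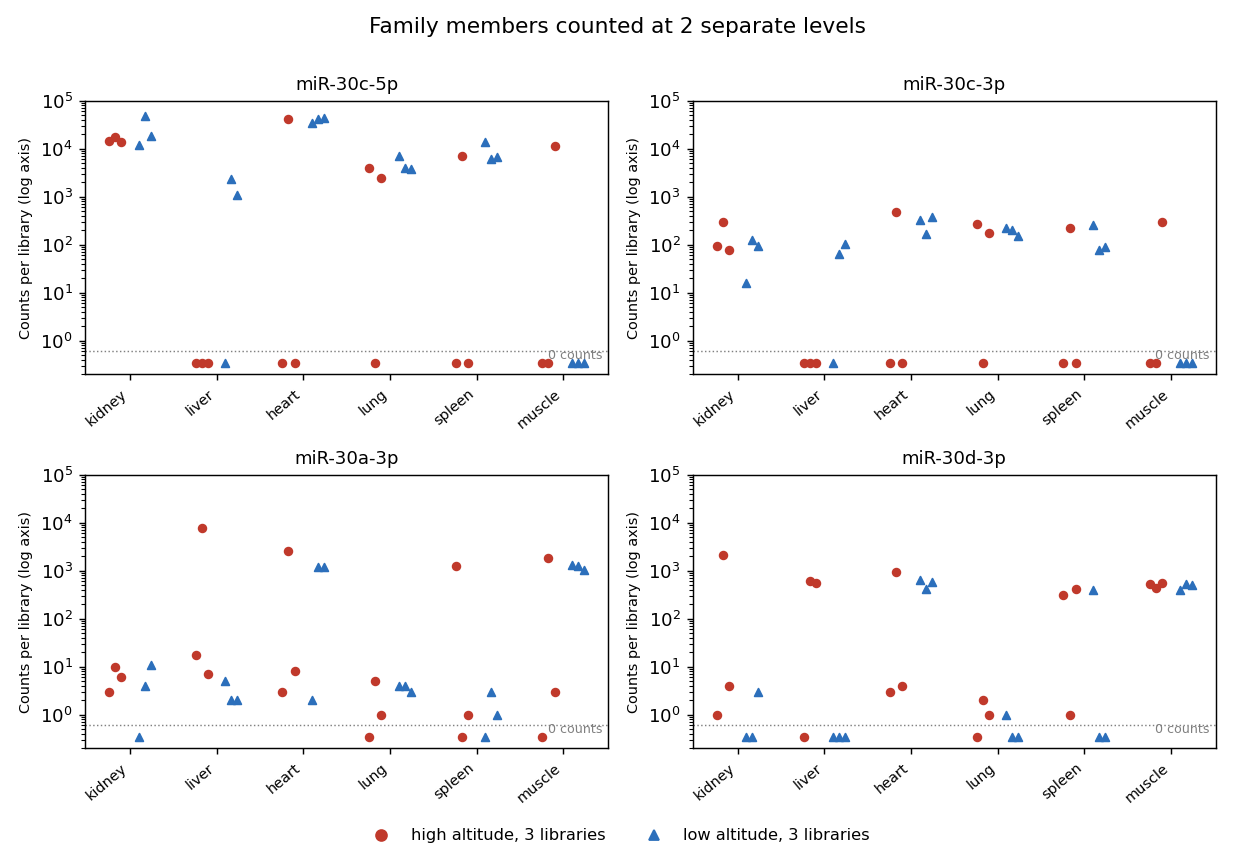
Points give the counts of 4 family rows in each of the 36 libraries on a log axis, by tissue and altitude (red circles high, blue triangles low), with libraries at 0 counts drawn under the dotted line. The arms of miR-30c are at 0 in the same 14 libraries, and miR-30a-3p and miR-30d-3p leave a gap between at most 18 and at least 319 counts.

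The 5p strand exceeded the 3p strand of the same letter in every library in which either was counted. The 3p strand made up a median of 3.90% of both for miR-30f, with a maximum of 26.7%, 2.06% for miR-30e, 1.45% for miR-30c in the 22 libraries where it was counted and 0.374% for miR-30b. For miR-30a and miR-30d the medians were 0.000923% and 0.00145%, and the highest libraries reached 2.89% and 0.642%. The most abundant 3p row was miR-30e-3p, from 160.7 ± 121.3 RPM in kidney to 412.0 ± 87.0 RPM in muscle (SD, n = 6), a difference of 2.35 ± 0.354 (log2, SE; edgeR adjusted p = 6.30e-06). Its 5p partner was highest in heart. The tissue call of miR-30e-3p depended on the scaling, with an edgeR adjusted p of 2.44e-06 with TMM and 0.184 with library size only.

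The comparison of altitudes within each tissue asked which members differ between the goat populations. A row was called at an adjusted p under 0.05 in edgeR's quasi-likelihood test, provided that its log2 fold change, high over low altitude, was at least 1.5 in size. None of the 12 members was called in any of the 6 tissues, and the smallest adjusted p of the 72 pairs of member and tissue was 0.237, beside 0.0359% of all pairs of miRNA and tissue called. Over all miRNAs the test called 0% in heart, kidney, liver and lung, 0.0719% in muscle and 0.144% in spleen. At an unadjusted p under 0.05 it had 11 of the 72 pairs. The share over all 8346 pairs of miRNA and tissue, of which 5424 had a count, was 5.32%. Of the 11 pairs of members, 6 were in the rows counted at 2 levels.

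The 5 others were miR-30f-5p in heart, kidney and spleen and miR-30e-3p in heart and liver. With DESeq2 and the same thresholds 4 pairs were called, miR-30f-5p in heart and spleen and miR-30c-5p and miR-30d-3p in liver, beside 2.59% of all miRNAs in heart, 2.59% in spleen and 2.23% in liver. The rows miR-30c-5p and miR-30d-3p were at 0 in whole groups of liver libraries, and no fold change is given for them.

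The smallest adjusted p of these edgeR fits belonged to miR-30f-5p, in heart, where it was lower at high altitude without passing the test. Some rows counted at 2 levels had larger fitted differences, in tissues where they had libraries at or near 0. In heart it had 349.0, 512.2 and 282.2 RPM at high and 1486, 1355 and 955.9 RPM at low altitude. In spleen it had 82.9, 93.0 and 93.6 RPM at high and 422.7, 190.9 and 261.0 RPM at low altitude. In neither tissue did the groups overlap, and the SD of the high-altitude spleen libraries was 6.02 RPM against 118.9 RPM at low altitude.

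In kidney it had 793.6, 906.3 and 651.4 RPM at high and 1201, 5031 and 1777 RPM at low altitude. In muscle it had 56.8, 59.2 and 35.6 RPM at high and 129.1, 107.7 and 85.1 RPM at low altitude. These groups did not overlap either, although low-altitude replicate 2 stood far above the other kidney libraries. In liver, with 73.7, 128.4 and 85.4 against 242.6, 156.0 and 71.2 RPM, and in lung, with 150.7, 259.4 and 53.4 against 305.3, 170.5 and 180.9 RPM, the groups overlapped.

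The log2 fold change of miR-30f-5p was -1.91 ± 0.395 (SE) in heart, -1.73 ± 0.395 in spleen, -1.60 ± 0.558 in kidney, -0.99 ± 0.456 in muscle, -0.65 ± 0.555 in liver and -0.54 ± 0.460 in lung. The adjusted p of edgeR's quasi-likelihood test was 0.237 in heart, 0.426 in spleen and from 0.746 to 0.932 in the other 4 tissues, so no tissue passed. DESeq2 gave adjusted p = 0.000106 in heart and 0.000203 in spleen. Over the 15 alternatives the adjusted p ran from 0.000106 to 0.866 in heart and from 0.000203 to 1 in spleen, and the log2 fold change from -2.32 to -1.72 in heart and from -1.89 to -1.43 in spleen. Without low-altitude replicate 2 the kidney value was -0.87.

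Fitted values below 0 in all 6 tissues were found for 4.03% of all miRNAs, and low-altitude libraries all above in at least 4 tissues for 1.73%. Both shares are over all 1391 miRNAs, of which 838 had a count in heart and 992 in liver. Rows with no count in a tissue cannot show either pattern there. Within single tissues, low-altitude libraries were all above for 6.68% of the miRNAs with a count in heart, 5.9% in kidney, 8.45% in muscle and 7.96% in spleen. The tissues came from the same goats and are not independent. Averages over the 6 tissues of each goat, a step chosen after the values were seen, are given on separate log2 scales. As log2(RPM + 1), miR-30f-5p had 7.30, 7.72 and 6.91 in the high-altitude and 8.78, 8.63 and 8.14 in the low-altitude goats. The scale that limma fitted was another, on which some rows lay below 0. There miR-30f-5p had 7.51, 7.36 and 7.10 in the high-altitude and 8.98, 8.60 and 7.88 in the low-altitude goats. The difference of -1.16 ± 0.314 was not called by limma over all miRNAs (adjusted p = 0.182), beside 0.216% of miRNAs that were. On the goat means that limma fitted, miR-30c-5p differed by -4.32 ± 0.737 (limma adjusted p = 0.0811) and miR-30c-3p by -1.93 ± 0.519 (limma adjusted p = 0.180). These values include the libraries at 0, so their size depends on the offset added before the logarithm, and neither row was called. An unadjusted p under 0.05 was found for 4 of 12 members on the goat means, these 3 and miR-30e-3p (0.55 ± 0.222, limma adjusted p = 0.362), beside 12.8% of all miRNAs.

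The values of the genomic neighbour and of the other strand of miR-30f-5p were set beside it, with no test of the difference between rows. For miR-30a-5p the log2 fold change ran from -0.33 in lung to 0.76 in muscle, and for miR-30f-3p from -0.29 in lung to 1.09 in liver, so that in lung all 3 rows were below 0. In heart, where miR-30f-5p was lowest at high altitude relative to low, miR-30a-5p had 56137, 34186 and 39866 RPM at high and 23759, 33612 and 20519 RPM at low altitude, so its high-altitude libraries were all above (0.56 ± 0.316, edgeR adjusted p = 0.777). The altitudes were also separated by summed marker lists, in 12 of 54 pairs of list and tissue, 10 of them higher at high altitude. The epithelial list was at 13.0 to 50.9 RPM in high-altitude and 7.69 to 12.5 RPM in low-altitude heart, the spleen list at 1936 to 3480 against 1519 to 1908 RPM in heart, and the muscle list at 182844 to 247352 against 258372 to 288574 RPM in muscle. The blood list was at 343.0 to 6388 against 8658 to 9959 RPM in liver, the lung list at 38.0 to 47.0 against 14.8 to 18.2 RPM in spleen, and the muscle list at 666.8 to 1058 against 100.9 to 304.4 RPM in kidney. Their part in these differences was not tested.

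**Figure D4:**
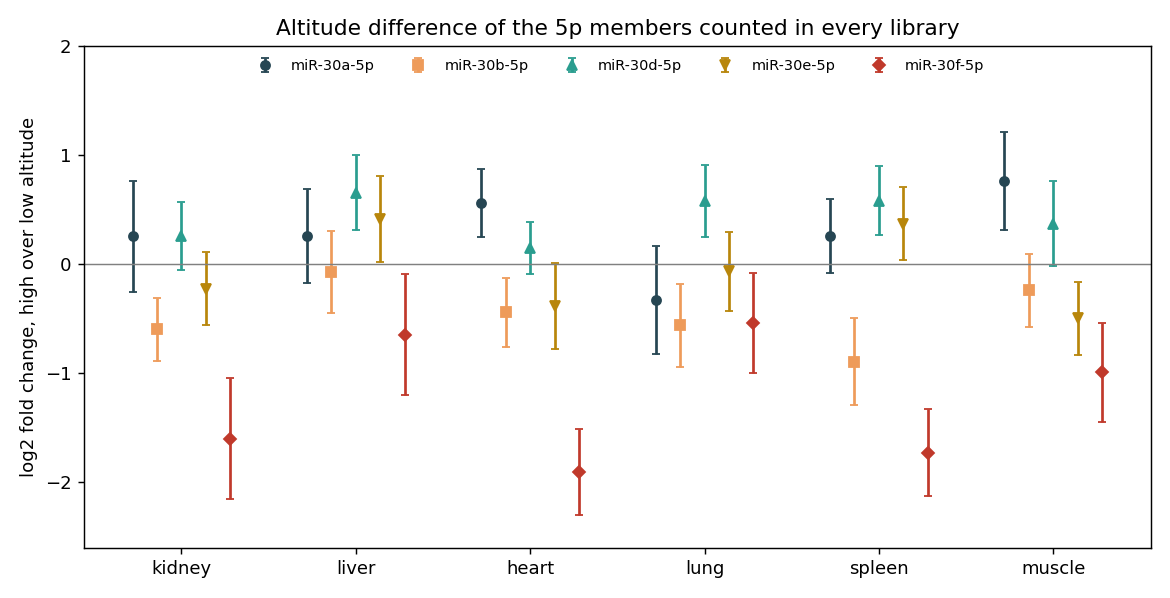
Points give the log2 fold change, high over low altitude, of the 5 members of the 5p arm counted in every library, by tissue, from edgeR with 3 libraries per group, and error bars give the SE. All 6 values of miR-30f-5p lie below 0, from -1.91 in heart to -0.54 in lung, and all 6 of miR-30d-5p lie above 0, from 0.15 to 0.66.

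The member miR-30d-5p had the opposite sign. In liver it had 13406, 13679 and 14101 RPM at high and 9781, 9171 and 9852 RPM at low altitude. In spleen it had 7736, 6425 and 7028 RPM at high and 5854, 3688 and 4368 RPM at low altitude. In heart it had 20124, 28500 and 23295 RPM at high and 18561, 19678 and 19805 RPM at low altitude. In these 3 tissues every high-altitude library was above every low-altitude library, as for 3.33% of the miRNAs with a count in liver, 6.41% in spleen and 13.4% in heart.

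The log2 fold changes of miR-30d-5p were small, with 0.66 ± 0.342 (SE) in liver and 0.58 in both spleen (SE 0.316) and lung (SE 0.330), then 0.37 ± 0.388 for muscle, 0.26 ± 0.313 for kidney and 0.15 ± 0.240 for heart. The smallest edgeR adjusted p was 0.726, in liver. Its genomic neighbour miR-30b-5p had fitted values below 0 in all 6 tissues, from -0.89 in spleen to -0.07 in liver, where the sign turned with the RLE size factors of DESeq2, with the smallest edgeR adjusted p at 0.729. In spleen miR-30b-5p had 192.7, 520.3 and 377.9 RPM at high and 622.6, 633.7 and 617.2 RPM at low altitude, and these groups did not overlap.

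For miR-30e the strands differed in sign in heart, kidney and muscle. In muscle miR-30e-5p had 9685, 10551 and 9940 RPM at high and 17427, 12497 and 17394 RPM at low altitude (-0.50 ± 0.338, log2, edgeR adjusted p = 0.799). The high-altitude libraries of miR-30e-3p in muscle, 428.7 to 557.8 RPM, were all above the low-altitude ones, 338.2 to 350.0 RPM (0.60 ± 0.348, edgeR adjusted p = 0.799), as for 5.28% of the miRNAs with a count. In liver miR-30e-3p had a log2 fold change of 1.56 ± 0.513 (edgeR adjusted p = 0.726) and in heart of 0.86 ± 0.312 (edgeR adjusted p = 0.657). Over the 72 pairs, the groups did not overlap in 15, of which 9 were higher at high altitude, beside 5.68% of all pairs of miRNA and tissue with a count, and 6 lower, beside 7.78%.

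In kidney, where miR-30c-5p was counted in all 6 libraries, its edgeR log2 fold change was -0.61 ± 0.467 (adjusted p = 0.960).

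The interaction of tissue and altitude, which asks whether the altitude difference of a member changes between tissues, was called for 0 of 12 members in edgeR, beside 0.216% of all miRNAs. Its unadjusted p was under 0.05 for the 4 rows counted at 2 levels, miR-30a-3p, miR-30c-3p, miR-30c-5p and miR-30d-3p, with adjusted p from 0.480 to 0.646. Over all miRNAs 6.69% had an unadjusted p under 0.05. For miR-30f-5p the adjusted p was 0.902. With the fit free of high-altitude replicate 2, miR-30a-3p, miR-30c-3p and miR-30c-5p were called, at edgeR adjusted p = 0.0128, 0.00509 and 0.00272, beside 0.719% of all miRNAs. In that fit every high-altitude library of heart, liver and spleen had 0 counts of both arms of miR-30c. For miR-30a-3p the muscle libraries left had 0 and 3 counts at high and 1031 to 1317 at low altitude. These calls therefore rest on rows counted at 2 levels.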

How the data were processed

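Small RNA libraries were made from total RNA of 6 tissues of 3 high- and 3 low-altitude goats. Per the labels and methods, the authors processed HiSeq reads with CASAVA 1.8, mapped them with Bowtie to the ARS1 goat genome with no mismatch and quantified mature miRNAs with miRDeep2 against miRBase. The files they deposited hold counts, the unnormalized number of reads for each mature miRNA. Total counts were 7108635 to 14407748 per library, and the lengths and sequences of the reads were not used here. No 2 libraries held identical values.

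Groups came from the sample labels. RPM is counts over the library's miRNA total. Altitude within tissue (3 against 3 libraries), tissue (36 libraries, altitude as a term) and their interaction were tested with edgeR 4.0.16 in R 4.3.3 (TMM, quasi-likelihood, Benjamini-Hochberg over all 1391 miRNAs, no filter on low counts). The altitude and tissue tests were also run on simulated counts. There all miRNAs had the same spread and none switched between present and absent within a group, so that run does not cover such rows. The adjusted p threshold was 0.05, with a log2 fold change of 1.5 or more in size for altitude only. Alternatives used DESeq2 1.42.0 and limma 3.58.1 (log2(RPM + 1), pseudocount 1), other scalings, a filter, a block and each goat left out. The goat means were fitted with limma on another log2 scale, on which some rows lay below 0. Python 3.11.15 with pandas 2.3.3 did the rest.

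The members and lists were chosen with earlier results of these data known. All family rows were named, altitude pairs followed under the alternatives were those with an unadjusted p under 0.05 or the smallest p of a tissue, and the miRNAs most like a member were the 3 outside the family with a mean of at least 100 RPM and the highest Spearman coefficient. Marker lists not spelled out elsewhere were heart (miR-208a, miR-208b, miR-499), liver (miR-122) and lung (miR-34b, miR-34c, miR-449a). Every goat gave 6 tissues, so the goat was a block across tissues by the design. Libraries were assigned to goats by the replicate number in the sample titles. The goat block, the goat means and the fits with a goat left out rest on that number. Same-numbered goats of the 2 populations are different animals.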

Additional observations from a re-analysis of the deposited data

How the results depend on the processing

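Of the 72 fitted altitude differences of members, 0 to 9 changed sign under any one alternative. Members called for altitude numbered 0 in every tissue with edgeR as reported. DESeq2 called 1 in heart, 2 in liver and 1 in spleen, the likelihood ratio test 1 in liver, and limma with 0 counts as missing 1 in liver and 1 in muscle, both miR-30c-5p, which was at 0 in a whole group there, so that these calls rest on which 0 counts were kept. Leaving out each goat gave 0 to 3 in heart and 0 to 1 in spleen, the calls coming without high-altitude replicate 2. In that fit miR-30f-5p was not called in heart (edgeR adjusted p = 0.113) or spleen (edgeR adjusted p = 0.809). Both arms of miR-30c were at 0 in all the high-altitude heart and spleen libraries that were left. Over all miRNAs and tissues, the 3 calls became 179 with DESeq2, 28 with edgeR's exact test, 53 with its likelihood ratio test, 17 with filterByExpr, 51 with limma, 54 with one fit over all libraries and 0 to 12 with a goat left out. With replicate number as a block there were 0 calls over all miRNAs and 0 of members. Same-numbered goats of the populations are different animals and share only a number. The mean correlation of their deviations was 0.0746 over 18 pairs (7 above 0.1), beside 0.0677 over 90 pairs of tissues of the same goat (40 above 0.1), so this check did not tell shared from unshared animals. The fitted difference of miR-30a-3p in spleen, uncalled throughout, ran from -1.69 without high-altitude replicate 1, the only library of that group at the higher level, to 10.002 without low-altitude replicate 2. That of miR-30c-5p in muscle could not be fitted without high-altitude replicate 3, since the other libraries were at 0.

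For tissue, 10 members were called as reported, 9 with the goat as a block and 8 with library size only, which lost miR-30b-3p and miR-30e-3p (adjusted p = 0.0679 and 0.184). Over all miRNAs the calls for tissue were 619, 476 and 666 in these fits and 464 to 506 with a goat left out. Leaving out each goat gave 9 to 12, with miR-30c-5p and miR-30c-3p called as well without high-altitude replicate 3 (adjusted p = 0.00131 and 0.0125), and miR-30d-3p not called without low-altitude replicate 2 or 3. With limma and 0 counts as missing 10 members were called, beside 569 of all miRNAs. In that fit miR-30c-5p was called (limma adjusted p = 0.000204), with its 0 counts in high-altitude liver and low-altitude muscle kept. The row miR-30a-3p was not called (limma adjusted p = 0.0611). Calls of the interaction over all miRNAs, 3 as reported, were 2 with the goat as a block and 0 to 10 with a goat left out, and those of members 0 to 3. The family sum with TMM was 12.8% in heart, 8.01% in liver, 5.10% in muscle and 2.27% in spleen. With the most abundant miRNA of each library left out of the total it was 21.7% in kidney, 12.2% in liver, 11.6% in heart, 10.3% in lung, 5.16% in spleen and 3.80% in muscle. The cause of these changes was not tested.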

Other observations

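Of the 140 miRNAs outside the family with a mean of at least 100 RPM, those most like miR-30a-5p over the 36 libraries were miR-200a-3p (Spearman's rho 0.768), an epithelial miRNA, miR-215-5p (0.750), which is abundant in kidney and gut, and miR-409-3p (0.669). For miR-30e-5p they were miR-708-3p (0.590), miR-378-3p (0.574) and miR-208b-3p (0.564), the last encoded in a myosin gene of striated muscle. For miR-30d-5p they were miR-708-3p (0.699), miR-490-3p (0.594) and miR-23b-3p (0.584). Among the 15 pairs of 5p members, miR-30b-5p and miR-30f-5p, which are not neighbours in the genome, had the highest Spearman's rho (0.769), while miR-30a-5p and miR-30e-5p had 0.00103. Pearson's coefficient was highest for the neighbours miR-30b-5p and miR-30d-5p (0.819, against 0.789 for miR-30b-5p and miR-30f-5p). The libraries share 6 goats and 6 tissues and are not independent, so these coefficients describe the 36 libraries and carry no test.

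The blood list, miR-451, miR-144 and miR-486, had medians of 18598 RPM in muscle, 16779 in heart, 7523 in liver, 5944 in lung, 4268 in spleen and 440.2 in kidney. The endothelial miR-126 rows had medians from 6943 RPM in muscle to 20864 in lung. Kidney, where the miR-30 family was highest, was thus lowest in the blood list.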
